A study of Mus musculus with 12 samples.

Results

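Striated muscle of mice lacking the lamin B receptor (genotype label LBR_KO) was set directly against striated muscle of mice lacking lamins A and C (LMNA_KO), gene by gene and without passing through the wild type. Genes entered the comparison when they averaged at least 1 FPKM over the 3 striated muscle columns and lay above 0 in both knockouts. FPKM counts the sequenced fragments of a gene relative to its transcript length and to the size of the library. Of the 22552 genes in the deposited table, 12069 met this rule. The 4 knockout muscle samples compared here are among 12 samples of a study that also holds myoblasts.

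All mice were C57Bl/6. The homozygous Lbr knockouts and the homozygous Lmna knockouts came from matings of heterozygous parents, as did the wild-type litter mates. The knockouts of the 2 genes thus come from different litters, so that litter and genotype cannot be told apart. The labels give neither the age and sex of the animals, nor the muscle dissected, nor the part of either gene that was deleted. Each knockout group had 2 samples and the wild type had 2, but the table gives each group as a single pooled value. No spread between animals can therefore be calculated, no p-value is given, and a difference of 2-fold or more on the log2(FPKM + 1) scale, an absolute log2 difference of at least 1, takes the place of a test. Every log2 difference below is Lbr knockout minus Lmna knockout unless another pair is named, and it understates the change of genes with low FPKM.

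The lamin B receptor is a protein of the inner nuclear membrane that holds heterochromatin at the nuclear rim through lamin B and heterochromatin protein 1, and its membrane part has the sterol reductase activity of cholesterol synthesis. Lamins A and C, both made from Lmna, form the nuclear lamina of differentiated cells and link it, with emerin and the LINC complex, to the cytoskeleton. Mutations of LMNA cause muscular dystrophy, cardiomyopathy and lipodystrophy in humans. Mice without lamins A and C grow poorly and develop muscular dystrophy.

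In all, 180 of the 12069 genes (1.49%) differed by 2-fold or more between the knockouts. Of these, 82 (0.679% of all genes compared) were higher and 98 (0.812%) were lower in Lbr-knockout muscle, while 11889 stayed within 2-fold. The median difference was -0.02, the quartiles of all genes were -0.21 and 0.17, and 47.3% of the genes were above 0. The genes past 2-fold made up 1.39% of those with a mean of 1 to 2 FPKM, 1.42% at 2 to 5 FPKM, 1.50% at 5 to 20 FPKM, 1.71% at 20 to 100 FPKM and 1.41% above that. Just inside the threshold lay Abca1, a cholesterol exporter gene, with 8.46 FPKM in Lbr-knockout and 18.0 FPKM in Lmna-knockout muscle, and just outside it lay Zfp874a, with 1.83 FPKM in Lbr-knockout and 4.66 FPKM in Lmna-knockout muscle.

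**Figure D1:**
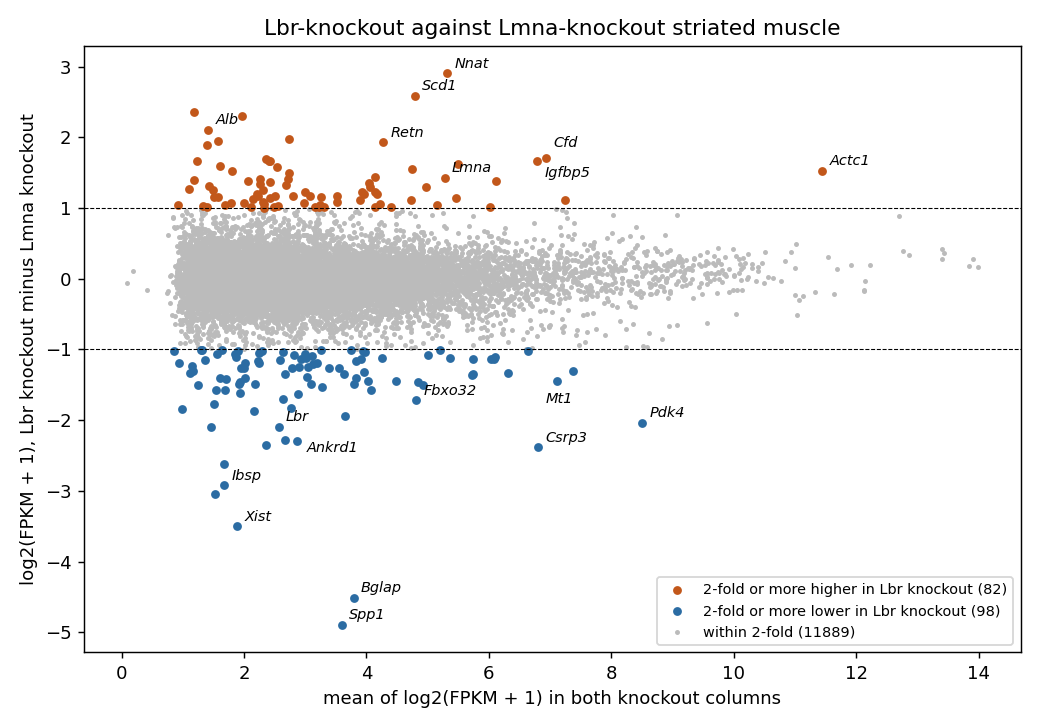
Difference between Lbr-knockout and Lmna-knockout muscle (log2 of FPKM + 1, vertical axis) against the mean log2 level of the gene (horizontal axis), with 1 point per gene. The 82 genes higher and the 98 genes lower by 2-fold or more are coloured, dashed lines mark 2-fold, and the points past the lines are found at every level of expression.

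The columns were close in summed FPKM and in genes at 1 FPKM or more. The 10 most abundant genes made up 23.6% of the summed FPKM in Lbr-knockout, 20.2% in Lmna-knockout and 26.5% in wild-type muscle. Genes at 0 numbered 4171 in Lbr-knockout, 3795 in Lmna-knockout and 4425 in wild-type muscle. The summed FPKM was 497267 in Lbr-knockout, 466722 in Lmna-knockout and 491344 in wild-type muscle, and the genes at 1 FPKM or more numbered 12256 in Lbr-knockout, 12239 in Lmna-knockout and 11809 in wild-type muscle. Sequencing depth is unknown, since no counts were used. Judged by the steps between low values, 1 FPKM at a transcript length of 2 kb was worth about 6.47 fragments in the Lbr-knockout column and about 8.15 in the wild-type column. The same estimate was 3.72 for the Lmna-knockout column, from a weak peak, so low values rest on few fragments. As to tissue, the most abundant fast-fibre genes were Myl1, a myosin light chain gene (17287 FPKM in Lbr-knockout, 15323 in Lmna-knockout and 20559 in wild-type muscle), and Tnnc2, the fast troponin C gene (15737 FPKM in Lbr-knockout, 13849 in Lmna-knockout and 16921 in wild-type muscle). Of 14 heart genes, 4 passed the filters, and all 4 were higher in the Lbr than in the Lmna knockout (median difference 0.85). Myh6, the atrial myosin heavy chain gene, had 19.1 FPKM in Lbr-knockout, 9.30 FPKM in Lmna-knockout and 22.2 FPKM in wild-type muscle, far below the fast-fibre genes. Tnni3, the cardiac troponin I gene, had 3.58 FPKM in Lbr-knockout, 1.76 FPKM in Lmna-knockout and 1.74 FPKM in wild-type muscle. Tnnt2, the cardiac troponin T gene, had 26.4 FPKM in Lbr-knockout, 22.3 FPKM in Lmna-knockout and 27.7 FPKM in wild-type muscle. Actc1, the cardiac alpha-actin gene, stood far higher, with 4741 FPKM in Lbr-knockout, 1642 FPKM in Lmna-knockout and 6501 FPKM in wild-type muscle. The markers of fast skeletal muscle were thus high in all 3 columns. Of the heart genes, Myh6, Tnni3 and Tnnt2 were far lower and Actc1 was high.

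The targeted genes were examined first. Lbr stood at 1.87 FPKM in Lbr-knockout, 11.3 FPKM in Lmna-knockout and 11.8 FPKM in wild-type muscle, a log2 difference between the knockouts of -2.10. Lmna stood at 62.8 FPKM in Lbr-knockout, 22.6 FPKM in Lmna-knockout and 59.5 FPKM in wild-type muscle, a difference of 1.43. Each gene was thus low in the knockout that carries its name, and the other knockout had about the wild-type level. Lbr and Lmna were also the only members past 2-fold, in either direction, of the 18 genes of the lamina and inner nuclear membrane, whose median was 0.01.

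Both B-type lamin genes were higher in the Lbr knockout by less than 2-fold. Lmnb2, encoding lamin B2, had 6.45 FPKM in Lbr-knockout, 3.59 FPKM in Lmna-knockout and 9.13 FPKM in wild-type muscle (difference 0.70). Lmnb1, encoding lamin B1, had 6.61 FPKM in Lbr-knockout, 4.25 FPKM in Lmna-knockout and 5.77 FPKM in wild-type muscle (0.54). Emd, the gene of emerin, an inner membrane protein held in place by A-type lamins, had 3.53 FPKM in Lbr-knockout, 2.22 FPKM in Lmna-knockout and 3.73 FPKM in wild-type muscle (0.49). Tmem43, the gene of the inner membrane protein LUMA, went the other way with 13.4 FPKM in Lbr-knockout, 20.1 FPKM in Lmna-knockout and 12.2 FPKM in wild-type muscle (-0.55). None of the 6 LINC complex genes, whose products span the nuclear envelope towards the cytoskeleton, was past 2-fold (median -0.11). Nor was any of 16 genes of H3K9 methylation and heterochromatin protein 1 (median -0.06). With 1.49% of all genes past 2-fold, lists this short would seldom hold any, so these counts say little about them.

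**Figure D2:**
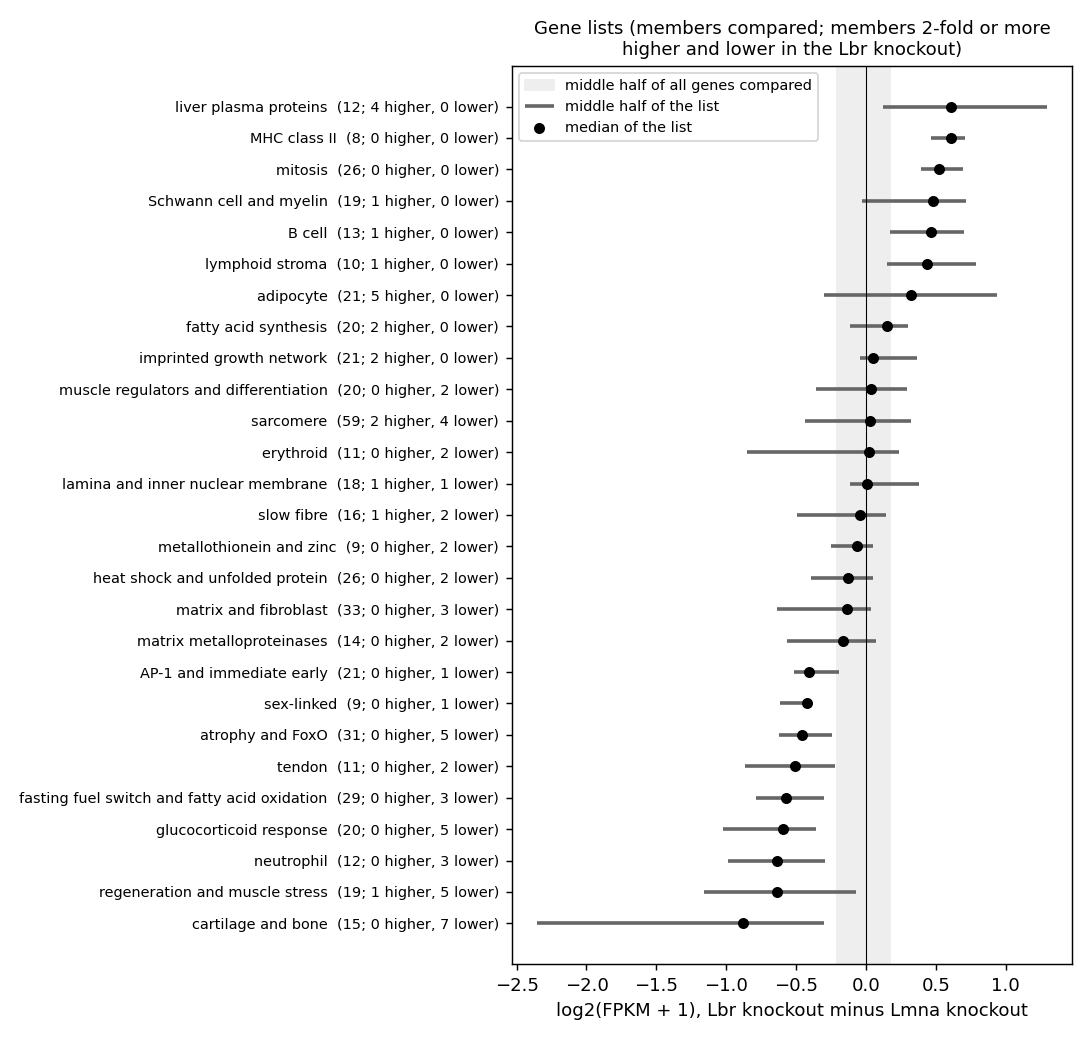
Median difference between Lbr-knockout and Lmna-knockout muscle (log2 of FPKM + 1, dot) and quartiles of the members (bar) for each of the 27 gene lists described, with the number of genes compared. The grey band spans the quartiles of all 12069 genes, -0.21 to 0.17. The cartilage and bone list has the lowest median, -0.88.

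Most genes that muscle uses to burn fat in place of glucose lay below 0, that is, at a lower level in the Lbr than in the Lmna knockout, though few by 2-fold. Of 29 genes of the fasting fuel switch and fatty acid oxidation, 3 were lower and 0 were higher by 2-fold, 28 lay below 0, and the median was -0.57 (quartiles -0.78 and -0.30). Pdk4 encodes the kinase that shuts off pyruvate dehydrogenase and so spares glucose. It had 178 FPKM in Lbr-knockout, 734 FPKM in Lmna-knockout and 171 FPKM in wild-type muscle (-2.04), so that the Lmna-knockout column alone stood high. Acot1 and Acot2, neighbouring genes of acyl-CoA thioesterases, had 3.18 and 8.83 FPKM in Lbr-knockout, 11.9 and 25.9 FPKM in Lmna-knockout, and 2.86 and 6.88 FPKM in wild-type muscle (-1.63 and -1.45). The sequences of these paralogs are alike, so reads may have been divided between them. Their ratio, Acot1 to Acot2, was 0.360 in Lbr-knockout, 0.460 in Lmna-knockout and 0.416 in wild-type muscle.

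The remaining members of this list were within 2-fold. Acadm, the medium-chain acyl-CoA dehydrogenase gene, had 46.1 FPKM in Lbr-knockout, 82.6 FPKM in Lmna-knockout and 52.2 FPKM in wild-type muscle (-0.83). Acadl, its long-chain counterpart, had 129 FPKM in Lbr-knockout, 224 FPKM in Lmna-knockout and 139 FPKM in wild-type muscle (-0.80). Plin5, a coat protein gene of lipid droplets beside mitochondria, had 13.4 FPKM in Lbr-knockout, 24.1 FPKM in Lmna-knockout and 8.48 FPKM in wild-type muscle (-0.80). The single member above 0 was Ppard, a nuclear receptor gene of fat oxidation, with 7.44 FPKM in Lbr-knockout and 6.45 FPKM in Lmna-knockout muscle (0.18). Mitochondrial genes outside fat oxidation were close to level. None of 79 oxidative phosphorylation genes was past 2-fold (median 0.02, quartiles -0.03 and 0.13), and neither was any of 24 genes of the tricarboxylic acid cycle and mitochondrial biogenesis (median -0.12) or of 31 genes of glycolysis and glycogen (median 0.02).

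Genes induced in wasting muscle and by glucocorticoids mostly lay below 0 as well. Of 31 atrophy and FoxO genes, 5 were lower and 0 higher by 2-fold, with 28 below 0 and a median of -0.46 (quartiles -0.62 and -0.24). Of 20 glucocorticoid response genes, 5 were lower and 0 higher, with 17 below 0 and a median of -0.59 (quartiles -1.02 and -0.35). The lists share 6 genes, Cebpd, Ddit4, Fbxo32, Klf15, Mt1 and Mt2, so their counts are not separate. Fbxo32 encodes atrogin-1, the ubiquitin ligase that marks muscle proteins for breakdown. It had 14.5 FPKM in Lbr-knockout, 50.1 FPKM in Lmna-knockout and 9.41 FPKM in wild-type muscle (-1.72). Trim63, the gene of the other main muscle ubiquitin ligase, MuRF1, differed less, with 50.2 FPKM in Lbr-knockout, 73.3 FPKM in Lmna-knockout and 49.2 FPKM in wild-type muscle (-0.54).

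Klf15, a glucocorticoid-induced transcription factor gene of muscle metabolism, had 5.79 FPKM in Lbr-knockout, 15.3 FPKM in Lmna-knockout and 4.13 FPKM in wild-type muscle (-1.26). Cdkn1a, encoding the cell cycle inhibitor p21, had 7.76 FPKM in Lbr-knockout, 22.1 FPKM in Lmna-knockout and 4.33 FPKM in wild-type muscle (-1.40). Lcn2, the gene of lipocalin 2, which neutrophils also make, had 3.45 FPKM in Lbr-knockout, 9.70 FPKM in Lmna-knockout and 1.24 FPKM in wild-type muscle (-1.27). In these 3 genes the Lmna-knockout column was highest and the Lbr-knockout column lay between it and the wild type. Bnip3, a mitophagy gene, had 67.9 FPKM in Lbr-knockout, 136 FPKM in Lmna-knockout and 67.9 FPKM in wild-type muscle and stopped just short of 2-fold (-0.99). Glul, which encodes glutamine synthetase, had 37.4 FPKM in Lbr-knockout, 72.7 FPKM in Lmna-knockout and 28.2 FPKM in wild-type muscle (-0.94). The receptor gene Nr3c1 itself had 21.7 FPKM in Lbr-knockout, 19.4 FPKM in Lmna-knockout and 19.1 FPKM in wild-type muscle (0.15). Sgk1, a kinase gene of the glucocorticoid list, had the opposite sign, with 93.9 FPKM in Lbr-knockout, 59.4 FPKM in Lmna-knockout and 86.5 FPKM in wild-type muscle (0.65).

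The metallothionein genes Mt1 and Mt2, whose products bind zinc and copper, are on both lists and lie next to each other in the genome. Their promoters are shown because both genes were past 2-fold with a like ratio. Capitals mark the core of the metal response element, TGCNCNC, on either strand, the sequence that the zinc-sensing factor MTF-1 is known to bind. The sequences are RefSeq's on GRCm38.p6, 250 bases before to 50 bases after the start site, plus strand, at chr8:94178839-94179138 for Mt1 and chr8:94172368-94172667 for Mt2. The deposited values were made on mm9, so these positions are not those of the files.
Mt1 promoter: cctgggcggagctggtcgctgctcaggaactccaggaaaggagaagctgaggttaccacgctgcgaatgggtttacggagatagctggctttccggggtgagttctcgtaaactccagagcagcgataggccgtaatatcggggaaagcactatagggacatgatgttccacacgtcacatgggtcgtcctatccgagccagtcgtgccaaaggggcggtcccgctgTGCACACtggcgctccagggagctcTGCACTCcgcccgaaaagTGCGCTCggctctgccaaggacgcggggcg
Mt2 promoter: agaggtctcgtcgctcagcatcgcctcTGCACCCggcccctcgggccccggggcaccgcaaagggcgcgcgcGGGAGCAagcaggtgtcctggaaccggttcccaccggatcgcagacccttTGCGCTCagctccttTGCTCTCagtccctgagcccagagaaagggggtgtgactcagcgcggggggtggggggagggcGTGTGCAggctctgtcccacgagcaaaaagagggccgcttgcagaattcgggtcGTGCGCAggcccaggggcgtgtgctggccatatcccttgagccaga

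The Mt1 window held 3 copies of the core and the Mt2 window 6. Among 32851 promoters of this length, 7.10% held at least 3 and 0.225% at least 6. A match is a string of letters and not a measured site. Mt1 had 82.7 FPKM in Lbr-knockout, 227 FPKM in Lmna-knockout and 38.8 FPKM in wild-type muscle (-1.45). Mt2 had 31.8 FPKM in Lbr-knockout, 83.2 FPKM in Lmna-knockout and 13.4 FPKM in wild-type muscle (-1.36). Both knockouts were thus above the wild type, the Lmna knockout further. The ratio of Mt1 to Mt2 was 2.60 in Lbr-knockout, 2.73 in Lmna-knockout and 2.90 in wild-type muscle. Mt3, a family member best known from brain, had 5.67 FPKM in Lbr-knockout, 4.11 FPKM in Lmna-knockout and 6.81 FPKM in wild-type muscle (0.39), and over the 9 metallothionein and zinc transport genes compared the median was -0.06.

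**Figure D3:**
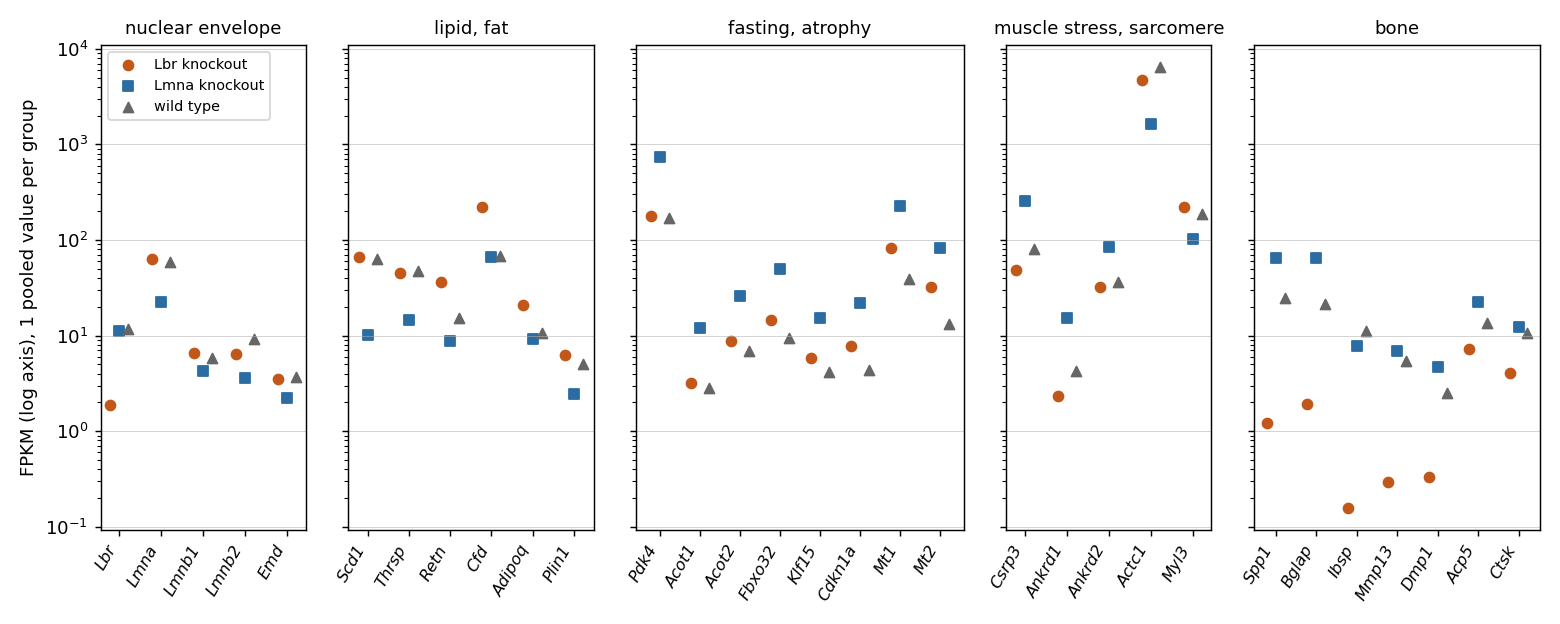
FPKM (log axis) of named genes in the Lbr-knockout, Lmna-knockout and wild-type muscle columns, with 1 panel per group of genes. Each point is the authors' pooled value: circles for Lbr knockout, squares for Lmna knockout and triangles for wild type, from left to right. Pdk4 and Fbxo32 peak in the Lmna-knockout column, whereas Scd1 dips there and Spp1 is lowest in the Lbr-knockout column.

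Genes of stressed and regenerating muscle were also mostly below 0. Of 19 such genes, 15 lay below 0, 5 were lower and 1 was higher by 2-fold, and the median was -0.63. Csrp3 encodes the muscle LIM protein of the Z-disc, a sensor of stretch. It had 48.1 FPKM in Lbr-knockout, 255 FPKM in Lmna-knockout and 80.2 FPKM in wild-type muscle (-2.38). The ankyrin repeat genes Ankrd1 and Ankrd2, whose products bind titin and respond to stretch, had 2.31 and 32.3 FPKM in Lbr-knockout, 15.2 and 83.8 FPKM in Lmna-knockout, and 4.30 and 36.7 FPKM in wild-type muscle (-2.29 and -1.35). In all 3 genes the Lmna-knockout column was the highest. Igfn1, a Z-disc protein gene, had 1.47 FPKM in Lbr-knockout, 5.57 FPKM in Lmna-knockout and 1.99 FPKM in wild-type muscle (-1.41). Of the 4 members above 0, Mybph, a myosin-binding protein gene, stopped just short of 2-fold (0.97). It had 204 FPKM in Lbr-knockout, 104 FPKM in Lmna-knockout and 153 FPKM in wild-type muscle. The member higher by 2-fold was Actc1, the gene of cardiac alpha-actin, which skeletal muscle makes before birth and again in regeneration. It had 4741 FPKM in Lbr-knockout, 1642 FPKM in Lmna-knockout and 6501 FPKM in wild-type muscle (1.53).

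The sarcomere as a whole had no common direction. Of 59 genes, 2 were higher and 4 lower by 2-fold, 30 lay above 0 and 29 below, and the median was 0.03 (quartiles -0.43 and 0.32; -0.07 after quantile normalization). This list shares 9 genes with the stress list, among them Actc1, Csrp3, Ankrd1 and Ankrd2. The other 2 past 2-fold were Lmod2 and Myl3. Lmod2, an actin filament nucleator gene, had 45.0 FPKM in Lbr-knockout, 99.8 FPKM in Lmna-knockout and 67.8 FPKM in wild-type muscle (-1.13). Myl3, the slow alkali light chain gene, had 222 FPKM in Lbr-knockout, 103 FPKM in Lmna-knockout and 187 FPKM in wild-type muscle (1.11). Slow-fibre genes were divided too. Mybpc1, slow myosin-binding protein C, had 264 FPKM in Lbr-knockout, 509 FPKM in Lmna-knockout and 299 FPKM in wild-type muscle (-0.95). Myl2, the slow regulatory light chain gene, had 221 FPKM in Lbr-knockout, 127 FPKM in Lmna-knockout and 270 FPKM in wild-type muscle (0.79). None of 17 fast-fibre genes was past 2-fold (median 0.17, but -0.07 after quantile normalization). The nearest to 2-fold among those named was Pvalb, the calcium buffer parvalbumin, with 9095 FPKM in Lbr-knockout, 4889 FPKM in Lmna-knockout and 11835 FPKM in wild-type muscle (0.90). Of 20 muscle regulators, 2 were lower by 2-fold, Igfn1 and Cdkn1a, and the median was 0.04. Myog, the gene of the factor myogenin, had 48.6 FPKM in Lbr-knockout, 28.7 FPKM in Lmna-knockout and 42.9 FPKM in wild-type muscle (0.74). Tmem8c, of the fusion protein myomaker, had 16.5 FPKM in Lbr-knockout, 10.6 FPKM in Lmna-knockout and 16.4 FPKM in wild-type muscle (0.60). Mstn, of the growth inhibitor myostatin, had 20.9 FPKM in Lbr-knockout, 13.5 FPKM in Lmna-knockout and 23.1 FPKM in wild-type muscle (0.60).

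Chaperone genes were near level with a few exceptions. Of 26 heat shock and unfolded protein genes, 2 were lower by 2-fold and the median was -0.13. These were Hspa1b and Hspa1a, adjacent and near-identical genes. Hspa1b had 1.31 FPKM in Lbr-knockout, 5.35 FPKM in Lmna-knockout and 2.47 FPKM in wild-type muscle (-1.46). Hspa1a had 2.15 FPKM in Lbr-knockout, 6.04 FPKM in Lmna-knockout and 2.87 FPKM in wild-type muscle (-1.16). Reads may have been divided between the pair. Cryab, the small chaperone of desmin, had 389 FPKM in Lbr-knockout, 616 FPKM in Lmna-knockout and 441 FPKM in wild-type muscle (-0.66). Early response genes leaned the same way. Of 21 AP-1 and immediate early genes, 1 was lower by 2-fold, 17 lay below 0 and the median was -0.41. Atf3, a stress transcription factor gene, had 3.86 FPKM in Lbr-knockout, 10.6 FPKM in Lmna-knockout and 11.5 FPKM in wild-type muscle (-1.25). Fos had 5.56 FPKM in Lbr-knockout, 11.1 FPKM in Lmna-knockout and 14.2 FPKM in wild-type muscle (-0.88). For both it was the Lbr-knockout column that stood apart from the other 2.

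Genes of bone cells led those that were lower in the Lbr knockout. Of 15 cartilage and bone genes, 7 were lower by 2-fold in the Lbr knockout, all 15 lay below 0, and the median was -0.88 (quartiles -2.35 and -0.30). The summed FPKM of the whole list was 32.9 in Lbr-knockout, 248 in Lmna-knockout and 132 in wild-type muscle. Bone matrix genes led. Spp1, the gene of osteopontin, which macrophages and injured muscle also make, had 1.22 FPKM in Lbr-knockout, 65.0 FPKM in Lmna-knockout and 24.9 FPKM in wild-type muscle (-4.89). Bglap, the gene of the osteoblast protein osteocalcin, had 1.90 FPKM in Lbr-knockout, 65.1 FPKM in Lmna-knockout and 21.3 FPKM in wild-type muscle (-4.51). Its near-identical neighbour Bglap2 was listed at 0 in Lbr-knockout, with 38.2 FPKM in Lmna-knockout and 13.5 FPKM in wild-type muscle, and reads of these copies may have been divided between them.

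Ibsp, the bone sialoprotein gene, had 0.157 FPKM in Lbr-knockout, 7.77 FPKM in Lmna-knockout and 11.3 FPKM in wild-type muscle (-2.92). Mmp13, the collagenase gene of osteoblasts and growth plate cartilage, had 0.293 FPKM in Lbr-knockout, 6.92 FPKM in Lmna-knockout and 5.36 FPKM in wild-type muscle (-2.62). Dmp1, an osteocyte matrix protein gene, had 0.328 FPKM in Lbr-knockout, 4.66 FPKM in Lmna-knockout and 2.49 FPKM in wild-type muscle (-2.09). The genes of bone-resorbing osteoclasts followed. Acp5, tartrate-resistant acid phosphatase, had 7.32 FPKM in Lbr-knockout, 22.4 FPKM in Lmna-knockout and 13.4 FPKM in wild-type muscle (-1.49). Ctsk, cathepsin K, had 4.04 FPKM in Lbr-knockout, 12.2 FPKM in Lmna-knockout and 10.6 FPKM in wild-type muscle (-1.39). For all 7 genes the Lbr-knockout column was the lowest of the 3. The osteocyte genes Mepe and Sost were listed at 0 in the Lbr knockout, and Sost also in the Lmna knockout. These genes mark bone and not muscle fibres, and whether the dissected tissue held different amounts of bone was not tested. In bulk tissue, fewer cells of a type and less RNA per cell cannot be told apart.

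RUNX2, the master factor of osteoblasts, is known to bind AACCACA. Stretches of the Mmp13 and Spp1 promoters that hold it are shown as examples from the bone genes with large differences. Promoters of Bglap, Ibsp and Dmp1, also among the 12 largest differences downward, are not shown. The examples therefore do not tell how common the match is among the bone genes. The stretches are 60 bases of RefSeq's GRCm38.p6 promoters, plus strand, with the match in capitals, at chr9:7272368-7272427 for Mmp13 and at chr5:104434955-104435014 for Spp1, where the table has 2 start sites and the first was used. Both strands were searched, each window held 1 copy, and 5.27% of all 32851 promoters held at least 1.
Mmp13 promoter: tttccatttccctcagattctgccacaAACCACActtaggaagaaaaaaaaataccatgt
Spp1 promoter: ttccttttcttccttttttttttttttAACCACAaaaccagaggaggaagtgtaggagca

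Genes of tendon and of matrix remodelling were in part lower as well. Of 11 tendon genes, 2 were lower by 2-fold and 10 lay below 0 (median -0.51), and the summed FPKM of the list was 598 in Lbr-knockout, 739 in Lmna-knockout and 708 in wild-type muscle. Tnmd, the tendon membrane protein tenomodulin, had 35.0 FPKM in Lbr-knockout, 77.9 FPKM in Lmna-knockout and 70.3 FPKM in wild-type muscle (-1.13). Thbs4, a thrombospondin gene of the muscle-tendon junction, had 24.8 FPKM in Lbr-knockout, 51.1 FPKM in Lmna-knockout and 31.1 FPKM in wild-type muscle (-1.01), and with the differences centred on the median of all genes it no longer reached 2-fold. Scx, the tendon transcription factor scleraxis, had 2.95 FPKM in Lbr-knockout, 6.33 FPKM in Lmna-knockout and 6.00 FPKM in wild-type muscle (-0.89). Timp1, the inhibitor of matrix metalloproteinases, had 1.89 FPKM in Lbr-knockout, 13.1 FPKM in Lmna-knockout and 8.01 FPKM in wild-type muscle (-2.29). Timp1, Spp1 and Thbs4 were the 3 genes past 2-fold among 33 of matrix and fibroblasts (median -0.13). The 20 collagen genes had a median of 0.10 and 0 past 2-fold.

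Neutrophil genes lay below 0 too. Of 12, 3 were lower by 2-fold in the Lbr knockout, all 12 lay below 0, and the median was -0.63 (quartiles -0.99 and -0.30). The whole list summed to 175 FPKM in Lbr-knockout, 242 FPKM in Lmna-knockout and 73.4 FPKM in wild-type muscle. Most of each sum came from S100a8 and S100a9, which differed little between the knockouts (-0.18 and -0.31). They had 90.7 and 56.8 FPKM in Lbr-knockout, 103 and 70.7 FPKM in Lmna-knockout, and 28.8 and 19.2 FPKM in wild-type muscle. Camp, the antimicrobial peptide cathelicidin, had 5.44 FPKM in Lbr-knockout, 23.7 FPKM in Lmna-knockout and 11.7 FPKM in wild-type muscle (-1.94). Mmp9, gelatinase B, which osteoclasts also make, had 0.546 FPKM in Lbr-knockout, 4.26 FPKM in Lmna-knockout and 2.16 FPKM in wild-type muscle (-1.77). For Camp and Mmp9 the Lbr-knockout column lay below the wild type. The list's median against the wild type was nevertheless 0.36 in the Lbr knockout and 0.99 in the Lmna knockout. The granule genes Ngp and Mpo lay at -0.90 and -0.69, and Lcn2 is the third gene past 2-fold. Bone marrow holds these cells beside bone, and its part in the difference was not tested. Of 11 red cell genes, 2 were lower by 2-fold. Car1, a carbonic anhydrase gene, had 0.262 FPKM in Lbr-knockout, 1.57 FPKM in Lmna-knockout and 1.23 FPKM in wild-type muscle (-1.02). Car1 did not reach 2-fold after quantile normalization. The alpha-globin gene Hba-a2 went the other way, with 740 FPKM in Lbr-knockout, 394 FPKM in Lmna-knockout and 527 FPKM in wild-type muscle (0.91). The row shared by its near-identical copies, Hba-a1,Hba-a2, had 1159 FPKM in Lbr-knockout, 1054 FPKM in Lmna-knockout and 1113 FPKM in wild-type muscle (0.14), and reads may have been divided between these rows. The erythroid list, at a median of 0.02, had no common direction.

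Genes of lipid storage and of secreted fat-cell proteins were among those higher in the Lbr knockout. Scd1, the desaturase that makes oleate from stearate, had 66.9 FPKM in Lbr-knockout, 10.3 FPKM in Lmna-knockout and 63.0 FPKM in wild-type muscle (2.59). Thrsp, a gene that promotes lipogenesis, had 45.0 FPKM in Lbr-knockout, 14.7 FPKM in Lmna-knockout and 47.2 FPKM in wild-type muscle (1.55). In both the Lmna-knockout column alone stood low. They were the 2 genes past 2-fold of 20 of fatty acid synthesis, whose median was 0.15. Elovl6, a fatty acid elongase gene, had 1.91 FPKM in Lbr-knockout, 0.792 FPKM in Lmna-knockout and 1.52 FPKM in wild-type muscle (0.70). Acacb, the acetyl-CoA carboxylase gene that restrains fat oxidation, had 23.8 FPKM in Lbr-knockout, 37.1 FPKM in Lmna-knockout and 17.7 FPKM in wild-type muscle (-0.62). Ces1d, a lipase of fat and liver, had 8.23 FPKM in Lbr-knockout, 1.84 FPKM in Lmna-knockout and 7.97 FPKM in wild-type muscle (1.70).

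Of 21 adipocyte genes, 5 were higher and 0 lower by 2-fold, 12 lay above 0, and the median was 0.32 (quartiles -0.30 and 0.94). Cfd, the gene of the secreted protease adipsin, had 220 FPKM in Lbr-knockout, 66.6 FPKM in Lmna-knockout and 67.6 FPKM in wild-type muscle (1.71). Retn, the gene of the hormone resistin, had 36.6 FPKM in Lbr-knockout, 8.87 FPKM in Lmna-knockout and 15.1 FPKM in wild-type muscle (1.93). Adipoq, the gene of adiponectin, had 21.0 FPKM in Lbr-knockout, 9.14 FPKM in Lmna-knockout and 10.8 FPKM in wild-type muscle (1.12). For Cfd the Lbr-knockout column stood high while the other 2 were level. Plin1, the lipid droplet coat gene of fat cells, had 6.21 FPKM in Lbr-knockout, 2.47 FPKM in Lmna-knockout and 5.04 FPKM in wild-type muscle (1.05). Retnla, a resistin-like gene that macrophages also make, had 25.2 FPKM in Lbr-knockout, 9.67 FPKM in Lmna-knockout and 19.4 FPKM in wild-type muscle (1.30).

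The sum of the list went the other way from its median. It was 1578 FPKM in Lbr-knockout, 1744 FPKM in Lmna-knockout and 1168 FPKM in wild-type muscle, with no marker at 0 in any column. Pnpla2, the triglyceride lipase of fat and muscle, had 139 FPKM in Lbr-knockout, 257 FPKM in Lmna-knockout and 93.1 FPKM in wild-type muscle (-0.89). Cd36, the fatty acid transporter of both tissues, had 180 FPKM in Lbr-knockout, 311 FPKM in Lmna-knockout and 140 FPKM in wild-type muscle (-0.79). Both lie outside the naming rule and were picked with their values in view, as was Ucp1, the uncoupling protein of brown fat. Ucp1 had 3.61 FPKM in Lbr-knockout, 1.23 FPKM in Lmna-knockout and 67.8 FPKM in wild-type muscle (1.05), so that its difference between the knockouts was small beside that of either knockout from the wild type. The part of fat tissue in these differences was not tested.

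Genes of plasma proteins, textbook products of liver, were in part higher in the Lbr knockout. Of 12, 4 were higher by 2-fold and 0 lower, with a median of 0.61 (quartiles 0.12 and 1.30). Alb, the albumin gene, had 4.53 FPKM in Lbr-knockout, 0.281 FPKM in Lmna-knockout and 1.54 FPKM in wild-type muscle (2.11). Apoa1, the main apolipoprotein gene of HDL, had 4.06 FPKM in Lbr-knockout, 0.361 FPKM in Lmna-knockout and 1.08 FPKM in wild-type muscle (1.90). Ahsg, the gene of fetuin-A, had 2.67 FPKM in Lbr-knockout, 0.393 FPKM in Lmna-knockout and 0.132 FPKM in wild-type muscle (1.40). Orm1, of an acute phase protein, had 3.35 FPKM in Lbr-knockout, 0.816 FPKM in Lmna-knockout and 6.38 FPKM in wild-type muscle (1.26). All 4 are low in level and stayed within 2-fold at a pseudocount of 5 FPKM. Of the 27 listed genes, 4 were at 0 in Lbr-knockout, 7 in Lmna-knockout and 4 in wild-type muscle, and the list summed to 263 FPKM in Lbr-knockout, 250 FPKM in Lmna-knockout and 156 FPKM in wild-type muscle. Most of each sum came from Apoe, with 186 FPKM in Lbr-knockout, 207 FPKM in Lmna-knockout and 110 FPKM in wild-type muscle (-0.16).

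Other genes higher in the Lbr knockout came from several roles. Nnat, an imprinted gene of a small membrane protein, had the largest positive difference, with 109 FPKM in Lbr-knockout, 13.6 FPKM in Lmna-knockout and 31.7 FPKM in wild-type muscle (2.90). The wild type lay between the knockouts. Igfbp5, an insulin-like growth factor binding protein gene of muscle, had 196 FPKM in Lbr-knockout, 60.9 FPKM in Lmna-knockout and 156 FPKM in wild-type muscle (1.67). Of 21 imprinted growth genes, 2 were higher by 2-fold, Nnat and Gatm, and the median was 0.05. Gatm and Gamt encode the enzymes that make creatine, in sequence. Gatm had 48.3 FPKM in Lbr-knockout, 19.1 FPKM in Lmna-knockout and 49.7 FPKM in wild-type muscle (1.29). Gamt had 110 FPKM in Lbr-knockout, 41.8 FPKM in Lmna-knockout and 118 FPKM in wild-type muscle (1.38). The same shape was seen in Prkag3, the muscle-specific subunit of AMP-activated kinase, with 28.0 FPKM in Lbr-knockout, 9.66 FPKM in Lmna-knockout and 28.7 FPKM in wild-type muscle (1.44). Opposite in direction was Neat1, the nuclear RNA that builds paraspeckles, with 105 FPKM in Lbr-knockout, 260 FPKM in Lmna-knockout and 114 FPKM in wild-type muscle (-1.31). Gamt, Prkag3 and Neat1 were likewise picked with their values in view.

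Genes of Schwann cells, the myelinating glia of nerve, lay above 0 in 13 of 19 cases, with 1 past 2-fold and a median of 0.48. Pmp2, a fatty acid binding protein gene of myelin, had 12.1 FPKM in Lbr-knockout, 2.34 FPKM in Lmna-knockout and 7.37 FPKM in wild-type muscle (1.98). Within 2-fold, Mbp, the gene of myelin basic protein, had 207 FPKM in Lbr-knockout, 114 FPKM in Lmna-knockout and 73.4 FPKM in wild-type muscle (0.86). Here the Lbr-knockout column was the highest and the wild type the lowest. The list summed to 1054 FPKM in Lbr-knockout, 657 FPKM in Lmna-knockout and 506 FPKM in wild-type muscle.

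The sums of lymphoid genes followed that order. Of 13 B cell genes, 1 was higher by 2-fold and 11 lay above 0 (median 0.46), and the list summed to 84.9 FPKM in Lbr-knockout, 58.3 FPKM in Lmna-knockout and 29.8 FPKM in wild-type muscle. Cd79b and Cd79a, which encode the signalling chains of the B cell receptor, had 15.7 and 18.4 FPKM in Lbr-knockout, 6.84 and 9.08 FPKM in Lmna-knockout, and 2.59 and 2.93 FPKM in wild-type muscle (1.09 and 0.94). All 8 MHC class II genes lay above 0, with 0 past 2-fold (median 0.61), such as Cd74, the invariant chain gene, with 65.4 FPKM in Lbr-knockout, 38.5 FPKM in Lmna-knockout and 14.0 FPKM in wild-type muscle (0.75). The 10 lymphoid stroma genes were all above 0 (median 0.44), with 1 past 2-fold. This was Cxcl13, the chemokine of B cell follicles, with 3.46 FPKM in Lbr-knockout, 1.00 FPKM in Lmna-knockout and 0.164 FPKM in wild-type muscle (1.15). Macrophage genes, 20 of them, and T and NK cell genes, 16 of them, had 0 past 2-fold and medians of 0.16 and 0.24. The lists summed to 291 and 88.7 FPKM in Lbr-knockout, 261 and 69.1 FPKM in Lmna-knockout, and 180 and 37.0 FPKM in wild-type muscle. The part of lymphoid or nerve tissue in the muscle differences was not tested.

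**Figure D4:**
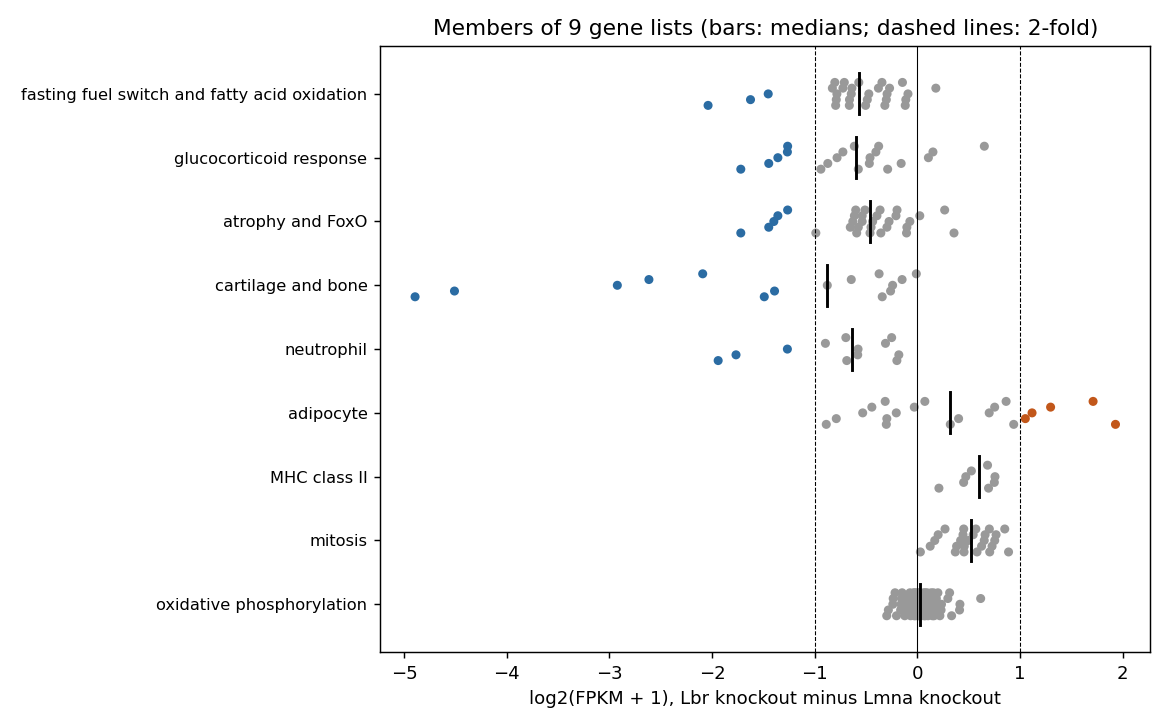
Differences between Lbr-knockout and Lmna-knockout muscle (log2 of FPKM + 1) of the single members of 9 gene lists, with 1 point per gene, a bar at the list's median and dashed lines at 2-fold. All 26 mitosis genes lie above 0 and within 2-fold, and all 15 cartilage and bone genes lie below 0.

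Genes of mitosis stayed within 2-fold one by one at the pseudocount of 1 FPKM but all lay in a single direction. Each of the 26 lay above 0, from 0.03 to 0.89, with 0 past 2-fold and a median of 0.52 (quartiles 0.39 and 0.69). Most have low FPKM, and with a pseudocount of 0.1 FPKM the median was 0.70 and 4 were higher by 2-fold. Cenpa, the centromeric histone gene, had 6.54 FPKM in Lbr-knockout, 3.07 FPKM in Lmna-knockout and 7.14 FPKM in wild-type muscle (0.89). Top2a, the topoisomerase of dividing cells, had 6.80 FPKM in Lbr-knockout, 3.62 FPKM in Lmna-knockout and 8.76 FPKM in wild-type muscle (0.75). Mki67, the proliferation marker gene, had 21.7 FPKM in Lbr-knockout, 13.0 FPKM in Lmna-knockout and 24.7 FPKM in wild-type muscle (0.70). Against the shared wild-type column the medians were -0.05 in the Lbr knockout and -0.58 in the Lmna knockout. Of 28 genes of DNA replication, 19 lay above 0, 0 were past 2-fold (3 with a pseudocount of 0.1 FPKM) and the median was 0.21. Ribosomal protein genes, 50 in number, had 45 above 0 and a median of 0.19.

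Of the 60 lists with at least 5 genes compared, 26 had no member past 2-fold, among them calcium handling (24 genes, median 0.05), the dystrophin complex and its linkage (29, -0.02), cholesterol synthesis (21, 0.17, but -0.14 where the filter was 5 FPKM), endothelium (20, -0.02), interferon response (21, -0.11, but 0.09 under that filter), satellite cell and Notch genes (19, -0.06) and the neuromuscular junction (19, -0.04). With 1.49% of all genes past 2-fold, a list of such size often holds none, so the absence says little about its genes. On any list were 23 of the 82 genes higher and 35 of the 98 genes lower. Most of the genes past 2-fold therefore belonged to no list, but so did most genes compared. The lists held 1104 of the 12069 genes and were chosen with earlier results of these data known.

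Sex-linked genes were not alike in the knockouts. Xist, the non-coding RNA by which female cells silence an X chromosome, had 0.0988 FPKM in Lbr-knockout, 11.4 FPKM in Lmna-knockout and 0.0153 FPKM in wild-type muscle (-3.50). The Y-linked genes were present in both, Ddx3y with 16.6 FPKM in Lbr-knockout, 27.5 FPKM in Lmna-knockout and 19.5 FPKM in wild-type muscle (-0.69) and Kdm5d with 3.54 FPKM in Lbr-knockout, 5.97 FPKM in Lmna-knockout and 2.88 FPKM in wild-type muscle (-0.62). The Lmna-knockout column thus held both Xist and Y-linked RNA. The part of sex in the differences between the knockouts was not tested. Hist1h2ap, with 0.000825 FPKM in Lbr-knockout, 7.26 FPKM in Lmna-knockout and 6.63 FPKM in wild-type muscle (-3.04), has near-identical histone copies and is uncertain. Krtdap, of keratinocytes (1.67), and the small RNA Rprl2 (2.31) were also among the 12 largest positive differences other than those of predicted genes.

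The wild-type column was then set beside the genes past 2-fold, as a description, since both differences from it share its error. The titles of the wild-type muscle samples do not tie them to the litters of either knockout. The Lmna-knockout column also had by far the most Xist. Its estimate of fragments per FPKM was the lowest but came from a weak peak, and the same column had the fewest genes at 0. The part of litter, depth and sex in the counts that follow was not tested. Over the same 12069 genes, 194 (1.61%) were past 2-fold from the wild type in the Lbr knockout and 336 (2.78%) in the Lmna knockout. Of the 180 genes past 2-fold between the knockouts, 68.3% had the Lbr-knockout value nearer to the wild type, 51 of the 82 higher and 72 of the 98 lower. The wild type lay between the knockouts for 42 of the 82 higher and 51 of the 98 lower genes. It lay above both for 30 and below both for 10 of the higher genes, and above both for 5 and below both for 42 of the lower genes. Past 2-fold from the wild type in the Lmna knockout alone were 41 of the higher and 51 of the lower genes, such as Scd1 and Pdk4, and in the Lbr knockout alone 15 of the higher and 12 of the lower, such as Cfd. For Pdk4 the Lbr knockout differed from the wild type by 0.06 and the Lmna knockout by 2.10. For Scd1 the values were 0.09 in the Lbr knockout and -2.51 in the Lmna knockout, and for Cfd 1.69 in the Lbr knockout and -0.02 in the Lmna knockout.

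A further 72 genes that averaged 1 FPKM or more were listed at 0 in a knockout and left out, 37 in the Lmna knockout only, 24 in the Lbr knockout only and 11 in both. All but 18 of these are small RNAs or predicted genes. An exact 0 can be a failed estimate, as Hmgcs1, a gene of cholesterol synthesis that most cells use, was listed at 0 in all 3 columns. Besides Bglap2, the genes with the highest values in the other knockout included Btg3, an antiproliferative gene, listed at 0 in the Lmna knockout with 5.63 FPKM in the Lbr knockout and 2.04 FPKM in the wild type.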

How the data were processed

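RNA sequencing measured striated muscle of 2 Lbr-knockout, 2 Lmna-knockout and 2 wild-type C57Bl/6 mice. Per the labels' protocols, total RNA was isolated with TRIZOL, cleaned on columns and made into libraries with the NuGEN complete RNA-Seq protocol, the same for all muscle samples. The deposited table holds FPKM calculated by the authors, with a single pooled column per muscle group. Per the submitters' processing notes, the build was mm9. Aligner, quantifier, annotation and the way samples were pooled: not given in the sources used here. Of 7 value columns, 0 were left unmatched to a group, and the 4 myoblast columns were not used.

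A gene was compared at a mean of at least 1 FPKM over the 3 muscle columns and above 0 in both knockouts. Differences are of log2(FPKM + 1). With 1 column a group no model could be fitted. Gene names are as deposited. The 63 gene lists held 1436 entries, of which 15 were not matched and 1104 different genes were compared, with 118 on more than 1 list. The comparison, the lists and the naming rule were chosen with earlier results of these data known. The rule named 5 lamina genes, the 12 largest differences each way without predicted genes, small RNAs with names in Mir, Snor or Rnu and rows of several symbols, and up to 6 members of each list with a median of at least 0.3 either way or with 2 or more past 2-fold (up to 4 abundant members of other lists). A few genes that meet the rule are not reported here. Genes named outside it were picked with their values in view. Promoters came from RefSeq on GRCm38.p6. The value of 1 fragment was taken from the peak of FPKM times length over 4200 genes of a single GENCODE M21 transcript, whose build is not that of the files. Low values came out within 0.1 of a whole fragment in 34.2% of cases in the Lbr-knockout column, 32.6% in the wild-type column and 21.6% in the Lmna-knockout column, so counts were not recovered. Calculations used Python 3.11.15, pandas 2.3.3 and numpy 2.4.6, and were tested on simulated data. The alternatives were pseudocounts of 0.1 and 5, no filter, a mean of at least 5 FPKM, centring, quantile normalization and genes listed at 0 kept.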

Additional observations from a re-analysis of the deposited data

Results flagged for a closer look

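Spp1, Bglap and Nnat lay 2-fold or more from the wild-type column in both knockouts and in opposite directions. Both differences use the same wild-type column, and the difference between the knockouts was not tested. For Spp1 the difference between the knockouts was -4.89, with -3.54 in the Lbr knockout and 1.35 in the Lmna knockout against the wild type. For Bglap it was -4.51, with -2.94 in the Lbr knockout and 1.57 in the Lmna knockout, and the near-identical copies of this gene make its level uncertain. For Nnat it was 2.90, with 1.74 in the Lbr knockout and -1.16 in the Lmna knockout.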

How the results depend on the processing

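The number of genes past 2-fold depended on the pseudocount and on the filter. With a pseudocount of 0.1 FPKM 404 genes were past 2-fold, 199 higher and 205 lower in the Lbr knockout, and with a pseudocount of 5 FPKM 56 were, 18 higher and 38 lower, so that 32.1% were higher in place of 45.6%. With a mean of at least 5 FPKM 109 genes remained in the count, 53 higher and 56 lower, by the construction of that filter, and 75.2% were nearer to the wild type in the Lbr knockout. No filter on the mean, centring, quantile normalization and keeping genes at 0 gave 179 to 237 genes. Of the 242 named genes, 0 of those past 2-fold changed sign under these alternatives. A pseudocount of 5 put 22 back within 2-fold (among them Adipoq, Ahsg, Alb, Apoa1, Atf3, Car1, Cd79b, Ces1d, Cxcl13, Dmp1, Hspa1a, Hspa1b, Igfn1, Klf15, Krtdap, Lcn2, Mmp9, Orm1, Plin1 and Thbs4), and a pseudocount of 0.1 carried 17 past it. After centring Thbs4 fell back within 2-fold, at -0.995, and the smooth muscle gene Myl9 passed it, at 1.01. Of the 60 list medians, 12 changed sign under at least 1 alternative, 4 of them reported at 0.1 or more either way and 0 at 0.3 or more. Leaving out each replicate was not run, as no separate values per sample were used. No paired analysis was possible because each group is a single pooled column. Depth limits low values, which rest on few fragments.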
